A study of Homo sapiens with 14 samples.

Results

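Small nucleolar RNAs (snoRNAs) are short RNAs that guide chemical changes on other RNAs, mostly ribosomal RNA. Box C/D snoRNAs (SNORD) carry a C box near the 5′ end and a D box near the 3′ end and direct 2′-O-methylation by fibrillarin, the FBL protein. Box H/ACA snoRNAs (SNORA) have a pair of hairpins joined by an H box and end in an ACA box, and they direct pseudouridylation by dyskerin, the DKC1 protein. In human cells most of them lie within introns of a host gene and are trimmed out of the spliced intron, so that they carry no poly(A) tail of their own. The rows described here were chosen by name and by measured value: of 21574 rows in the table of RPKM (reads per kilobase of transcript, scaled to the mapped reads of the library), 127 have a name that starts with SNORA or SNORD and a number, and the 65 with a value above 0 in at least one column are the members. They comprise 47 box C/D and 18 box H/ACA rows.

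Cells labelled HepG2, an established human line of hepatic tumour origin, were transfected with siRNA against the RNA-editing enzyme ADAR1 (siADAR1, KD) or with scrambled siRNA (control), and all libraries came from such cells with no other treatment in the labels. RNA structure was probed by PARS-seq, in which S1 nuclease cuts unpaired and RNase V1 cuts paired bases of poly(A)-selected RNA, and ribosome-protected fragments (Ribo-seq) and RNA (RNA-seq) were sequenced from the same conditions. PARS-seq and Ribo-seq had 2 replicates for each condition and RNA-seq had 1 library for each. The authors averaged the S1 and V1 libraries of each replicate into 1 PARS-seq column, so that those values have no error of their own, and the 14 libraries give 10 columns.

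ADAR, the knocked-down gene, was read first in every column. PARS-seq gave 40.7 and 46.8 RPKM for the controls against 15.1 and 15.1 RPKM for KD (log2 difference -1.47, SE 0.17, limma adjusted p = 0.002). In RNA-seq it was at 54.8 RPKM in control and 15.4 RPKM in KD. In Ribo-seq it was at 43.6 in control and 8.73 RPKM in KD of replicate 1, but at 55.5 and 44.0 RPKM in replicate 2, so the level in the KD library of replicate 2 was close to that of the controls and Ribo-seq values are given by replicate where a row is described. The liver identity was not seen in these data. Of 10 liver markers, 9 have a row of their own, among them albumin (ALB), alpha-fetoprotein (AFP) and apolipoprotein B (APOB), and these 9 summed to between 0 and 2.12 RPKM in a column, with APOA2 in one Ribo-seq library as the only value of 1 RPKM or more. The row that holds the liver transcription factor HNF4A stayed between 0 and 0.803 RPKM, while COL1A1, a collagen of fibroblasts and other mesenchymal cells, was at 9.75 to 54.7 RPKM. The blood marker PTPRC and the endothelial marker PECAM1 were at 0.0892 RPKM or less in every column. What this means for the snoRNA levels was not tested.

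The sequences shown next hold the boxes that mark both classes, and copies that share much or all of their sequence. Loci were found for 67 snoRNAs of the members in the GENCODE annotation lifted to GRCh37, the build of the deposited values. Of the 47 box C/D loci, 40 held the letters TGATGA (C box) within their first 25 bases and 46 held CTGA (D box) within their last 20 bases, on the sense strand. Equally long windows beside the loci held them in 0 and 2 cases. Of the 20 box H/ACA loci, 19 held ANANNA (H box) between 35% and 65% of their length and 17 held ACA within their last 8 bases, against 6 and 1 of the windows beside them. First shown are the 3 box C/D snoRNAs with the highest PARS-seq levels among those with a row of their own, with the C and D boxes in capitals.
SNORD104: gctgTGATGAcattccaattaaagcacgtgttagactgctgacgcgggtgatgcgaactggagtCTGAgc
SNORD60: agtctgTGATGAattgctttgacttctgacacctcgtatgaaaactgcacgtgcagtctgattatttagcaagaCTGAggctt
SNORD5: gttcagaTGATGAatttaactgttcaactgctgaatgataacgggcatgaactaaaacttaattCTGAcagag
They lie at chr17:62223443-62223512 on the plus strand in an intron of SNHG25, at chr16:2205024-2205106 on the minus strand in SNHG19 (in an exon of at least one transcript), and at chr11:93466394-93466466 on the minus strand in TAF1D. Next are 2 box H/ACA snoRNAs from TAF1D, shown because they were among the highest in Ribo-seq (SNORA32) or lower in KD than in control in every assay (SNORA40), with the H and ACA boxes in capitals where the search found them.
SNORA32: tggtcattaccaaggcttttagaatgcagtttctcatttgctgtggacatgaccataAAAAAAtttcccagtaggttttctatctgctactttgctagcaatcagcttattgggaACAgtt
SNORA40: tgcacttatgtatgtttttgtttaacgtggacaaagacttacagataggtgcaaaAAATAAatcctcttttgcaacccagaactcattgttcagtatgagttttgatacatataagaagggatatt
They lie on the minus strand at chr11:93464145-93464265 and chr11:93468277-93468402. The annotation places both of them, like SNORD5, within an exon of at least one TAF1D transcript.

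A further set compares copies of SNORD116, a box C/D family repeated in tandem in the imprinted host SNHG14 on the plus strand of chromosome 15, with the C and D boxes in capitals.
SNORD116-29: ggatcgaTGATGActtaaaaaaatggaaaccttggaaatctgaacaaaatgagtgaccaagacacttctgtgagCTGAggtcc
SNORD116-8: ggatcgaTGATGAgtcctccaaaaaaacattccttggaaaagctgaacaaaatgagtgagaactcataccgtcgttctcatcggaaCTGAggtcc
SNORD116-18: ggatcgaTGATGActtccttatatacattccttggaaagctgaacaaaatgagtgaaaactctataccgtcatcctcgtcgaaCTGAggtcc
SNORD116-17: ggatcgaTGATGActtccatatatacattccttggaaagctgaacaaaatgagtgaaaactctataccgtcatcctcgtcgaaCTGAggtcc
SNORD116-19: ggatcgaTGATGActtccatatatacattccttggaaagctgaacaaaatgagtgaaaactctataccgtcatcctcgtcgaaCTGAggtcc
These copies lie at chr15:25351668-25351750, chr15:25315579-25315673, chr15:25330532-25330623, chr15:25328735-25328826 and chr15:25331674-25331765. SNORD116-17 and SNORD116-19 are identical over the whole locus, and SNORD116-29 has the lowest identity to its nearest relative among the copies with a locus, at 79.2%.

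The members were sorted by their names into 4 main kinds and a small remainder. A single snoRNA of its own names 10 box C/D and 8 box H/ACA rows, and 25 rows belong to SNORD116. A further 17 rows, 7 of box C/D and 10 of box H/ACA, join one or more snoRNAs to the symbol of a host gene, as in SNORA31;TPT1, so that their value includes reads of the host transcript. The remaining 5 rows, of the imprinted SNORD109 and SNORD114 families, never rose above 2.24 RPKM, and the smallest value that made a row a member was 0.0534 RPKM, for SNORD114-4 in 1 PARS-seq column. The 62 rows left out were at 0 in every column and were mostly copies of the imprinted families SNORD114 (27 rows), SNORD115 (25 rows) and SNORD113 (7 rows). Another 119 rows, led by the symbol of another gene, hold 229 snoRNA symbols. They are not members and were only counted.

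Among the 65 members, 56 and 58 had a value above 0 in the PARS-seq control columns and 61 and 58 in the KD columns. In Ribo-seq the numbers were 32 in control and 34 in KD of replicate 1 and 54 and 51 in replicate 2, and in RNA-seq they were 32 and 31. The depth behind these values differs greatly. RPKM multiplied by transcript length came out in whole steps for short RNAs, with 94.7% to 98.3% of values below 20 reads within 0.05 of a whole read, and the steps correspond to totals of about 995631 and 1404389 reads for control and KD of Ribo-seq replicate 1, 3322912 and 2405051 reads for replicate 2, and 40723164 and 30207550 reads for RNA-seq control and KD. A single read on a snoRNA of 94 bases was therefore worth 10.7, 7.58, 3.20 and 4.42 RPKM in the 4 Ribo-seq libraries, in the same order, and 0.261 and 0.352 RPKM in RNA-seq. Intervals on such reads cover counting error only, and those of PARS-seq cannot be recovered, since its columns are means of 2 libraries.

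SnoRNAs with a row of their own had higher group medians in PARS-seq and Ribo-seq than in RNA-seq. Among the single box H/ACA rows SNORA70G was the lowest, at 0.839 to 0.957 RPKM in PARS-seq and at 0 in Ribo-seq and RNA-seq. The 10 box C/D rows had medians of 23.8 and 23.1 RPKM in the PARS-seq controls and 28.9 and 25.3 RPKM in KD. In RNA-seq their median was 0 in both libraries, and 6 of the 10 were at 0 in both. The 8 box H/ACA rows had PARS-seq medians of 30.5 and 32.4 RPKM in control and 25.6 and 27.2 RPKM in KD, against 0.544 and 0.127 RPKM in RNA-seq. All 18 rows were higher in PARS-seq than in RNA-seq on the log2(RPKM + 1) scale in either condition. SNORA70G is a member only through its PARS-seq values, so its direction was fixed by the selection. The rows joined to a host showed no such gap, with PARS-seq above RNA-seq in 8 of 17 for the controls and 11 of 17 for KD. RNA-seq, PARS-seq and Ribo-seq libraries were each scaled to their own total, which limits the comparison of levels between assays.

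**Figure D1:**
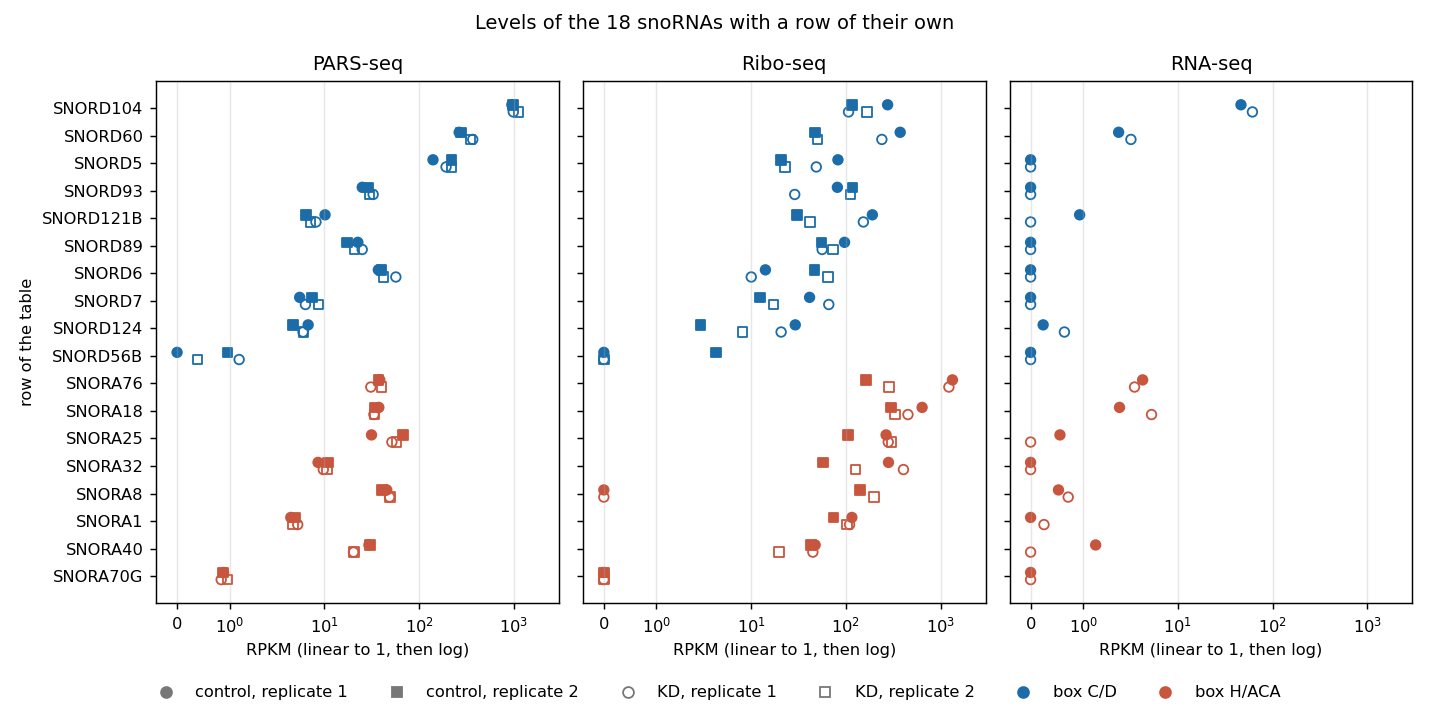
RPKM of the 10 box C/D and 8 box H/ACA snoRNAs with a row of their own, in PARS-seq, Ribo-seq and RNA-seq, on an axis that is linear up to 1 and logarithmic above. Filled symbols are control and open symbols KD, circles replicate 1 and squares replicate 2. SNORD104 is the highest row in PARS-seq (955 to 1119 RPKM) and SNORA76 reaches the highest Ribo-seq value (1337 RPKM), while most rows sit at or near 0 in RNA-seq.

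SNORD104, a box C/D snoRNA in an intron of SNHG25, was the highest member in PARS-seq. It was at 955 and 976 RPKM in the controls and at 990 and 1119 RPKM in KD. In RNA-seq it was at 46.3 RPKM in control (151 reads) and 61.2 RPKM in KD (148 reads), the highest RNA-seq level of any row with a snoRNA of its own. In Ribo-seq it was at 276 against 107 RPKM (control against KD) in replicate 1 and at 117 against 166 RPKM in replicate 2, on 22 against 12 and 31 against 32 reads. The PARS-seq groups of SNORD104 did not overlap, but the difference was small (log2 difference 0.12, SE 0.20, limma adjusted p = 0.698).

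SNORD60, in SNHG19, was at 265 and 277 RPKM in the PARS-seq controls and 369 and 349 RPKM in KD. Both KD values were above both control values, by 0.40 on the log2 scale (SE 0.18), with a limma adjusted p of 0.168. In Ribo-seq it was at 375 against 240 RPKM in replicate 1, the highest values of a single box C/D row there, and at 47.1 against 50.1 RPKM in replicate 2. SNORD5, from TAF1D, was at 140 and 219 RPKM in control and 193 and 219 RPKM in KD, and its groups overlapped. SNORD93, in an intron of SNHG26, was at 25.1 and 28.9 RPKM in control and 32.7 and 29.8 RPKM in KD of PARS-seq, and at 81.4 against 28.9 RPKM (replicate 1) and 118 against 112 RPKM (replicate 2) in Ribo-seq. The Ribo-seq values of replicate 1 rest on 6 and 3 reads. The other 6 box C/D rows, SNORD6, SNORD7, SNORD56B, SNORD89, SNORD121B and SNORD124, ranged from 0 to 56.9 RPKM in PARS-seq.

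The highest single row in each Ribo-seq library was a box H/ACA snoRNA, SNORA76 in replicate 1 and SNORA18 in replicate 2. SNORA76 was at 1337 RPKM in control and 1226 RPKM in KD of replicate 1 (177 and 229 reads) and at 163 and 284 RPKM in replicate 2 (72 and 91 reads), against 30.9 to 39.9 RPKM in PARS-seq. For SNORA76 the replicates of Ribo-seq thus stood further apart than the conditions did. SNORA18 was at 639 and 453 RPKM in control and KD of Ribo-seq replicate 1 and at 301 and 331 RPKM in replicate 2, and at 37.6, 34.4, 33.3 and 34.0 RPKM in the 2 control and 2 KD columns of PARS-seq. SNORA25 was at 266 and 280 RPKM in replicate 1 and 105 and 302 RPKM in replicate 2 of Ribo-seq, and SNORA32 at 282 and 406 RPKM and at 57.2 and 127 RPKM. Both were higher in KD in each replicate, on 23 to 97 reads a library, and neither passed the test across all rows (limma adjusted p of 1 for both).

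The balance between Ribo-seq and PARS-seq is described by class. For box H/ACA rows the median log2 ratio of Ribo-seq to PARS-seq, with 1 RPKM added to each, was 3.55 and 1.93 in the same-numbered control columns and 3.07 and 2.58 in KD. For box C/D rows, control gave 1.08 and 0.44, and KD -0.40 and 0.48. The box H/ACA median was the higher one in all 4 pairs of columns. The rows spread widely in both classes: SNORA1 was between 3.67 and 4.43, SNORA40 between -0.05 and 1.10, SNORA70G between -0.97 and -0.88, SNORA8 at -5.54 and -5.64 in replicate 1, SNORD121B between 2.08 and 4.10 and SNORD104 between -3.20 and -1.79. Members are not replicates, replicates of different assays share only a number, and the ratio is a description with no test. The classes also differ in length, from 71 to 114 bases for box C/D and from 121 to 142 bases for box H/ACA by RefSeq, and the part of length or structure in this balance was not tested.

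**Figure D2:**
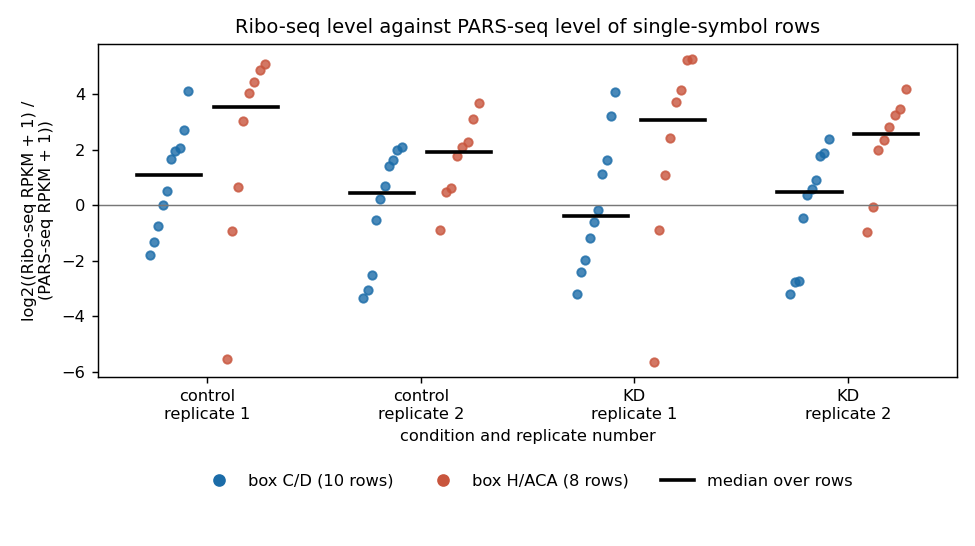
Log2 ratio of Ribo-seq to PARS-seq RPKM, with 1 added to each, for the 10 box C/D and 8 box H/ACA snoRNAs with a row of their own, in each same-numbered pair of columns. Points are rows and black bars are medians over rows. The box H/ACA medians (1.93 to 3.55) lie above the box C/D medians (-0.40 to 1.08) in every pair, while the points of the classes overlap.

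Ribo-seq replicates differed in which snoRNAs they held. SNORA8, a box H/ACA snoRNA from TAF1D, was at 0 RPKM in both libraries of replicate 1 but at 141 and 197 RPKM in control and KD of replicate 2, on 65 and 66 reads. At the depth of replicate 1 the same share would have given 19.5 reads in control and 38.5 in KD. The SNORD116 rows with a single symbol summed to 1 read in control and 7 reads in KD of replicate 1, against 59 and 27 reads in replicate 2. Scaled to the same library size (RPM, the read share in the unit that RPKM uses for depth), this was 1.00 (95% exact Poisson interval 0.0254 to 5.60) and 4.98 (2.00 to 10.3) in replicate 1 and 17.8 (13.5 to 22.9) and 11.2 (7.40 to 16.3) in replicate 2. The single box H/ACA rows went the other way in sum, with 354 and 330 RPM in control and KD of replicate 1 and 117 and 180 in replicate 2. SNORA76 alone held 177 of their 352 reads in control and 229 of 463 in KD of replicate 1. In replicate 2 it held 72 of 389 and 91 of 434 reads. Whether RNA isolation, fragment size or another step of the library separates the replicates was not tested.

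Among the 18 single rows, TAF1D was the host of the largest group. This gene, which encodes a subunit of the RNA polymerase I selectivity factor, holds 8 of them within 4724 bases of chromosome 11: in the direction of transcription SNORA40, SNORA18, SNORD5, SNORA8, SNORA1, SNORD6, SNORA32 and SNORA25. The annotation places each of them except SNORD6 within an exon of at least 1 TAF1D transcript. Reads of the host can therefore count in these rows, and their share was not tested. The levels of the 8 rows differed widely although they come from 1 host. In PARS-seq SNORD5 was the highest and SNORA1 the lowest in all 4 columns, 31.8- and 44.6-fold apart in the controls and 36.9- and 46.8-fold apart in KD. SNORA1 was at 4.42, 4.92, 5.23 and 4.68 RPKM in the 2 control and 2 KD columns. In Ribo-seq SNORA18 was the highest in all 4 libraries. The row of TAF1D itself was at 31.8 and 31.1 RPKM in control and 29.6 and 28.1 RPKM in KD of PARS-seq, and at 5.97 to 9.20 RPKM in Ribo-seq. Some of these loci share sequence with other sites, as 44.3% of the 30-base windows of SNORA40, 63.4% of those of SNORA1 and 75.5% of those of SNORA8 occur once in GRCh37, against all windows of SNORD5, SNORD6, SNORA25 and SNORA32.

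**Figure D3:**
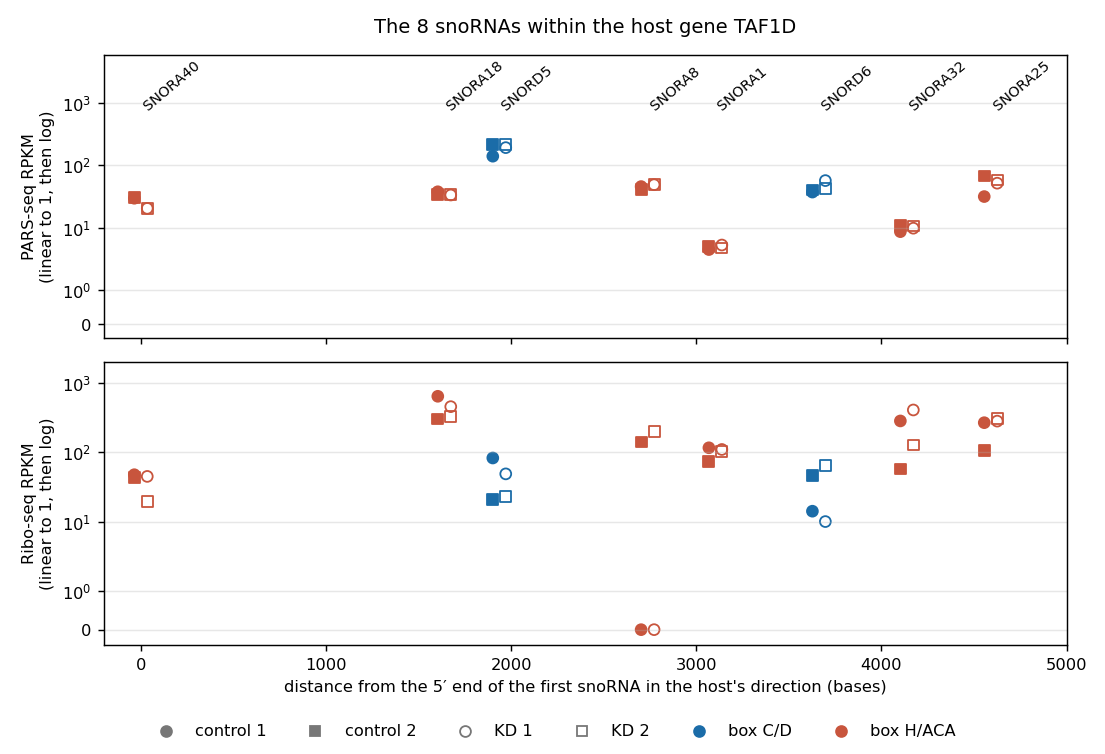
PARS-seq (top) and Ribo-seq (bottom) RPKM of the 8 snoRNAs of TAF1D against their distance in bases from the 5′ end of the first of them, on axes that are linear up to 1 and logarithmic above. Filled symbols are control, open symbols KD, circles replicate 1 and squares replicate 2. SNORD5 (140 to 219 RPKM) stands highest in PARS-seq and SNORA18 (301 to 639 RPKM) in Ribo-seq, and SNORA8 is at 0 in Ribo-seq replicate 1.

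SNORA40 was lower in KD in every pair of columns with reads. In PARS-seq it was at 29.6 and 30.4 RPKM in control and 20.3 and 20.4 RPKM in KD. The replicates lay close together and the groups did not overlap, and the log2 difference was -0.54 (SE 0.16), with a limma adjusted p of 0.0553 that missed the threshold of 0.05. In Ribo-seq it was at 47.4 against 44.8 RPKM in replicate 1 and 42.7 against 19.6 RPKM in replicate 2, on 6 against 8 and 18 against 6 reads, and in RNA-seq at 1.35 RPKM (7 reads) against 0 RPKM. With each column centred on its median it passed (limma adjusted p = 0.0461). With no filter on low rows it did not pass. The snoRNAs that follow it in the host, SNORA18, SNORD5 and SNORA8, had PARS-seq log2 differences of -0.09 (SE 0.16), 0.23 (SE 0.24) and 0.18 (SE 0.17).

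SNORD116 values depended on the copy. In PARS-seq SNORD116-29 was at 40.9 and 27.4 RPKM in control and 36.8 and 23.8 RPKM in KD. SNORD116-18 was at 24.2, 16.6, 23.0 and 18.1 RPKM and SNORD116-22 at 24.3, 17.8, 24.7 and 19.6 RPKM in the same order. Replicate 1 was the higher one in both conditions for each of these 3 copies. The deposited values count only uniquely aligned reads, and 3 rows, each of 2 copies identical to each other (SNORD116-3 with SNORD116-9, SNORD116-5 with SNORD116-7 and SNORD116-17 with SNORD116-19), have no 30-base window that occurs once in the genome. These 3 rows were not all at 0, with 0.235 RPKM or less in every PARS-seq column and 3.20 RPKM for SNORD116-17;SNORD116-19 in 1 Ribo-seq library, whereas the 17 other rows with all copies placed had control means of 0.257 to 34.1 RPKM, with a median of 3.45 RPKM. Among these 17 the share of unique windows and the control mean had a Spearman rho of 0.0123 and, on log2(RPKM + 1), a Pearson r of -0.05. Over all 20 placed rows, which include the 3 with no unique window, the Spearman rho was 0.393. These values describe rows that share libraries and sequence. For 5 copies (SNORD116-4, SNORD116-20, SNORD116-21, SNORD116-22 and SNORD116-28) no locus was matched. The box C/D snoRNA SNORD116-11 was at 0.268 to 1.22 RPKM although all its windows are unique, and SNORD116-8 at 16.1 to 38.9 RPKM with 27.3% of them unique.

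**Figure D4:**
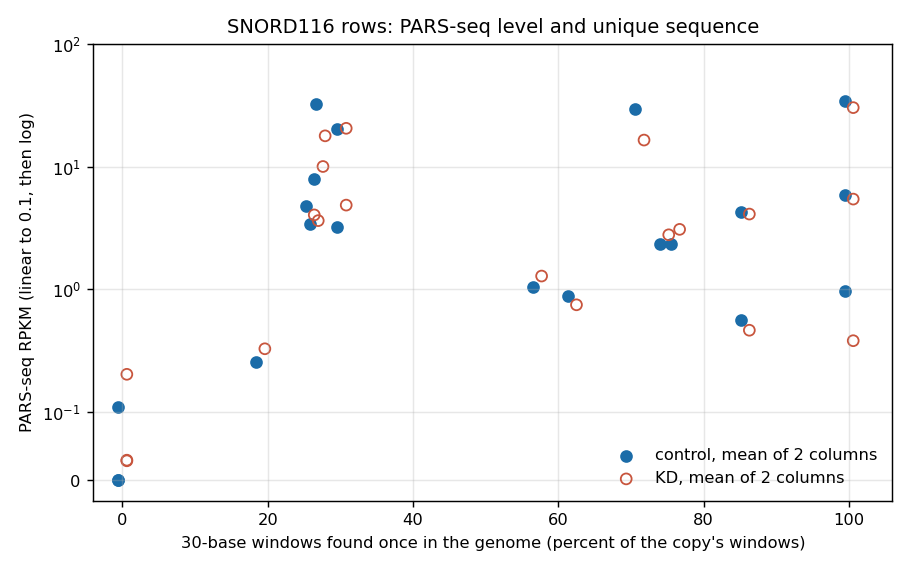
PARS-seq RPKM of the 20 SNORD116 rows with all copies placed, as the mean of 2 control (filled) or 2 KD (open) columns, against the percent of the 30-base windows of the copy that occur once in GRCh37. The vertical axis is linear up to 0.1 and logarithmic above. The 3 rows at 0% stay at or below 0.203 RPKM, and above 0% the levels range from 0.257 to 34.1 RPKM in control with no order by the share of unique windows.

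ADAR1 knockdown was then compared with control across all rows of PARS-seq with limma on log2(RPKM + 1), which understates the change of low rows. Of 11153 rows with a mean of at least 1 RPKM, 15.5% were called at a Benjamini-Hochberg adjusted p under 0.05, 8.06% higher and 7.43% lower in KD. Of the 65 members, 50 passed that filter, and 3 of them were called, 2 higher and 1 lower in KD. Their median log2 difference was 0.14, against 0.04 over all rows tested. None of the 9 box C/D and 7 box H/ACA rows tested with a snoRNA of their own was called (0 and 1 with an unadjusted p under 0.05). With 2 against 2 columns an exact two-sided permutation test cannot go below 0.333, so single rows rest on the fit across rows. In such bulk libraries fewer cells with a transcript and less of it per cell cannot be told apart.

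The 2 rows called higher join snoRNAs to a protein-coding host. SNORD53;SNORD92;WDR43, where WDR43 encodes a factor of small ribosomal subunit assembly, was at 14.9 and 16.5 RPKM in control and 30.1 and 27.8 RPKM in KD, a log2 difference of 0.84 (SE 0.16, limma adjusted p = 0.0136). SNORD91A;SNORD91B;TSR1, where TSR1 is another assembly factor of the small ribosomal subunit, was at 13.2 and 15.9 RPKM in control and 23.3 and 27.3 RPKM in KD, a log2 difference of 0.76 (SE 0.18, limma adjusted p = 0.0264). The groups of both rows did not overlap, and reads of the snoRNAs and of the host cannot be told apart in such a row. Without the filter on low rows neither was called (limma adjusted p of 0.0515 and 0.0862), and the TSR1 row was not called without control replicate 1 (0.0809) or KD replicate 2 (0.0967). In each fit that leaves out a column, 1 column stands against 2 and is assumed to vary like the other group. In Ribo-seq the WDR43 row was at 18.9 against 27.6 RPKM in replicate 1 and 12.3 against 21.0 RPKM in replicate 2. In RNA-seq it was at 9.29 against 10.5 RPKM. SNORD121A;UBAP2 (11.9 and 16.7 against 21.1 and 24.1 RPKM, limma adjusted p = 0.062) and SNORD41;TNPO2 (14.9 and 19.9 against 22.8 and 27.9 RPKM, limma adjusted p = 0.106) also had both KD values above both control values without passing the test. Leaving out one column at a time, the log2 difference of the UBAP2 row ranged from 0.41 without control replicate 1 (limma adjusted p = 0.328) to 0.87 without control replicate 2 (0.00432), and that of the TNPO2 row from 0.33 (0.473) to 0.73 (0.0211) under the same omissions. The UBAP2 row also passed without KD replicate 1 (0.0417) but not without KD replicate 2 (0.182). SNORD121B, in another intron of UBAP2 and with a row of its own, was at 10.2 and 6.43 RPKM in control and 8.15 and 7.15 RPKM in KD, with overlapping groups. SNORA14B;TOMM20 was lower in KD, at 37.4 and 40.6 against 30.2 and 32.4 RPKM (log2 difference -0.31, SE 0.16, limma adjusted p = 0.236).

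The row called lower was SNORD116-8, at 38.9 and 25.8 RPKM in control and 19.6 and 16.1 RPKM in KD. Its log2 difference was -0.80 (SE 0.22, limma adjusted p = 0.0464) and its groups did not overlap. The call was lost without the filter on low rows (limma adjusted p = 0.162), without KD replicate 2 (log2 difference -0.66, 0.107) and without control replicate 1 (-0.51, 0.189), while without control replicate 2 the log2 difference was -1.09. SNORD116-1 was likewise lower in both replicates, at 39.5 and 19.3 RPKM in control and 18.9 and 14.0 RPKM in KD, and did not pass (log2 difference -0.73, SE 0.31, limma adjusted p = 0.146). Without control replicate 1 its log2 difference was -0.23 (limma adjusted p = 0.659), without control replicate 2 it was -1.23 (2.33e-05), and without KD replicate 1 it was -0.93 (0.013). SNORD116-29 and SNORD116-2 were also lower in both replicates, by smaller differences. Of the 18 SNORD116 rows tested, 7 were higher and 4 lower in KD in both replicates, with a median log2 difference of 0.05.

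How often both replicates went the same way is given as counts, with no test between the classes. Among the single box C/D rows 6 of 9 were higher in KD in both PARS-seq replicates and 0 of 9 lower in both, with a median log2 difference of 0.20. Among the single box H/ACA rows 1 of 7 was higher and 2 of 7 were lower in both, with a median of 0.07. Among the rows joined to a host 10 of 16 were higher and 4 of 16 lower in both, with a median of 0.26. Over all rows tested the shares were 45.1% and 36.9%. Median log2 differences were 0.16 and 0.12 in replicates 1 and 2 for all 34 box C/D rows and 0.18 and 0.07 for all 16 box H/ACA rows.

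**Figure D5:**
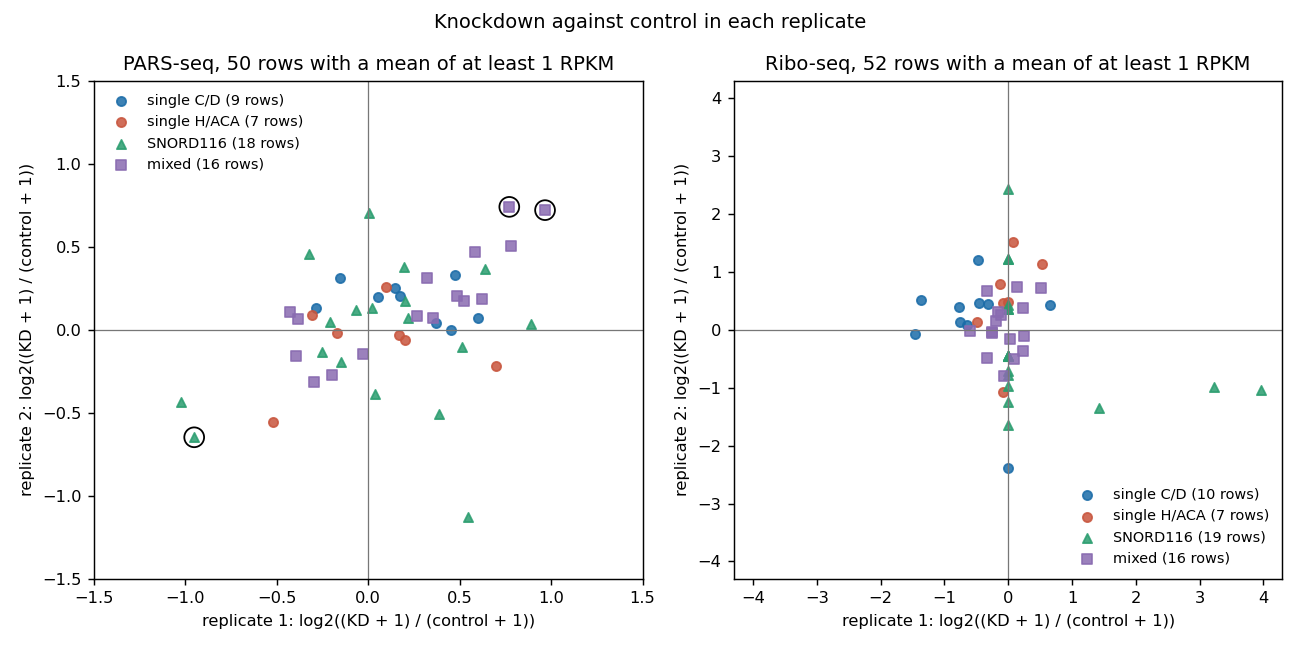
Log2 ratio of KD to control RPKM, with 1 added to each, in replicate 1 (horizontal) against replicate 2 (vertical), for the members with a mean of at least 1 RPKM in PARS-seq (left, 50 rows) and Ribo-seq (right, 52 rows). Colours give the kind of row and black rings mark the 3 rows called by limma in PARS-seq. The 2 ringed rows at the upper right are joined to WDR43 and TSR1 and the one at the lower left is SNORD116-8, while in Ribo-seq 8 of the 10 single box C/D rows lie left of 0 in replicate 1 and 8 of 10 above 0 in replicate 2.

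In Ribo-seq, 0% of the 10882 rows tested were called by limma, so that the 0 calls among the 52 members tested carry no contrast with other rows. At an unadjusted p under 0.05 the fit had 43 of all rows and 0 of the members. The single box C/D rows moved apart by replicate: 8 of 10 were lower and 1 higher in KD in replicate 1, while 8 of 10 were higher and 2 lower in replicate 2. Their median log2 differences were -0.56 and 0.41, against -0.02 and 0.16 over all rows tested. SNORD56B reached the minimum mean only through 1 read in the control library of replicate 2, so its fall there was fixed by the selection. RPKM also depends on library totals. In replicate 1, SNORD6 (1 against 1 read), SNORD124 (3 against 3) and SNORD121B (15 against 17) counted as lower in KD. In replicate 2, SNORD60 (13 against 10 reads) and SNORD5 (5 against 4) counted as higher. The single box H/ACA rows had medians of -0.08 and 0.49. Only SNORD7 among the single box C/D rows was higher in both replicates, at 41.4 against 66.1 RPKM and 12.4 against 17.1 RPKM, on 4 against 9 and 4 against 4 reads.

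The SNORD116 rows had too few reads in Ribo-seq to compare the conditions. No copy with a single symbol had more than 7 reads in any of the 4 libraries, and 18 to 20 of 21 such rows had 0 reads in replicate 1. SNORD116-8 was at 0 against 14.7 RPKM in replicate 1, which is 0 against 2 reads, and at 18.6 against 8.57 RPKM in replicate 2. SNORA30;SRCAP and SNORA47;ZBED3, whose hosts encode a chromatin remodeller and a zinc-finger protein, were lower in KD in both Ribo-seq replicates (9.57 against 9.13 and 19.95 against 11.1 RPKM in replicates 1 and 2 for the former, and 7.24 against 5.56 and 14.8 against 10.2 RPKM in replicates 1 and 2 for the latter). Neither passed the test (limma adjusted p of 1 for both). In PARS-seq both were higher in KD in each replicate, at 5.83 and 8.18 against 9.52 and 9.44 RPKM for the SRCAP row and with log2 differences of 0.52 and 0.17 in replicates 1 and 2 for the ZBED3 row, and did not pass there either (limma adjusted p of 0.167 and 0.184).

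RNA-seq had 1 library for each condition and gave no test. A change of 2-fold or more on the log2(RPKM + 1) scale was seen in 1.73% of the 10946 rows with a mean of at least 1 RPKM and in 2 of the 23 members among them, both higher in KD and both at 0 in control. These were SNORD116-21 (0 against 2.47 RPKM) and SNORD114-14 (0 against 2.24 RPKM), on 7 and 5 reads. Both reached the minimum mean only through their KD value, which for SNORD114-14 is also the value that made it a member, so their direction was fixed by the selection and nothing is read from the count beside that of all rows. SNORD116-4, the SNORD116 copy with the highest RNA-seq level, was at 10.8 RPKM in control (43 reads) and 5.07 RPKM in KD (15 reads). The 16 rows joined to a host that reached this mean had log2 ratios of -0.57 to 0.24. SNORA31;TPT1, joined to the translationally controlled tumour protein, and SNORD119;SNRPB, joined to a spliceosomal protein, were the highest, at 613 against 647 RPKM and 534 against 561 RPKM.

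The highest rows joined to a host did not pass the test in PARS-seq. SNORA31;TPT1 was at 754 and 487 RPKM in control and 574 and 436 RPKM in KD, with overlapping groups, and SNORD119;SNRPB at 216 and 178 against 160 and 192 RPKM. SNORD12;SNORD12B;SNORD12C;ZNFX1-AS1, whose host ZFAS1 is a long noncoding RNA, was at 535 and 593 against 467 and 490 RPKM in PARS-seq, with both KD values below both control values (log2 difference -0.24, SE 0.19, limma adjusted p = 0.426). Its RNA-seq values were 28.0 and 18.5 RPKM, under its PARS-seq values. SNORA5A;SNORA5B;SNORA5C;TBRG4 was at 108 and 69.3 against 82.8 and 72.5 RPKM.

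Small Cajal body RNAs, the relatives of snoRNAs that guide changes on spliceosomal RNAs, have rows of the same kind in the table. Of their 8 rows, 1 was called higher in KD in PARS-seq and 0 lower, beside the same 8.06% and 7.43% of all rows. This was SCARNA17, at 27.4 and 27.2 RPKM in control and 56.4 and 45.2 RPKM in KD (log2 difference 0.86, SE 0.18, limma adjusted p = 0.0179). SCARNA2 was at 10.8 and 21.6 against 27.1 and 31.0 RPKM and did not pass (limma adjusted p = 0.0723). In Ribo-seq 0 of the 8 rows were called.

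Proteins of the snoRNA particles were read from a list of 20 rows that covers the box C/D core, the box H/ACA core and assembly factors. In PARS-seq 4 of the 20 were called higher in KD and 0 lower, with a median log2 difference of 0.29, where 8.06% and 7.43% of all rows tested were called higher and lower and the median was 0.04. NOLC1, a chaperone of both particle classes, was at 20.8 and 21.7 RPKM in control and 46.5 and 50.5 RPKM in KD (log2 difference 1.15, SE 0.16, limma adjusted p = 0.00433), and RUVBL2, a helicase of the assembly complex, at 29.4 and 25.1 against 40.9 and 54.0 RPKM (limma adjusted p = 0.0341). The other two rows called hold NOP56 and DKC1 together with snoRNAs of their own introns, at 129 and 146 against 219 and 294 RPKM and at 73.3 and 116 against 156 and 189 RPKM. In Ribo-seq 0 of the 19 rows tested were called, as were 0% of all rows tested, so the count carries no contrast. The log2 difference of the fit was above 0 in all 19, with a median of 0.51, against 0.08 over all rows. Single replicates could go the other way, as for SHQ1 (-0.53 in replicate 1 and 0.70 in replicate 2). The list was not tested as a set.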

How the data were processed

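The values were RPKM in 1 table of 10 columns and 21574 rows, which the authors deposited: reads were aligned in local mode with Bowtie2 to hg19, the UCSC form of GRCh37, only reads with a unique alignment were kept, and coverage was counted over RefSeq transcripts, scaled by length and library total. The submitters' processing notes also name cutadapt. The counting command (coverageBed) set no strand option, although the PARS-seq protocol keeps strand, so overlapping and antisense genes may share reads. Versions of the aligner are not given in the sources used here. PARS-seq columns average an S1 and a V1 library. The 8 tables of read starts were not used here, since their transcript identifiers were not paired with the snoRNA rows. RPKM are not counts, so no count test was run.

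KD was compared with control on log2(RPKM + 1) by limma 3.58.1 (R 4.3.3), with a variance trend by level, over rows with a mean of at least 1 RPKM, two-sided, with Benjamini-Hochberg adjustment over all rows tested and a threshold of 0.05. RNA-seq had no replicates and was described by 2-fold changes. The fit was tested on simulated data. The study calls the PARS-seq and Ribo-seq replicates biological, and p-values measure the spread between these columns. Loci and sequences came from GENCODE v44lift37 and GRCh37, and lengths from RefSeq. Python 3.11.15, pandas 2.3.3, numpy 2.4.6, scipy 1.17.1 and matplotlib 3.10.9 were used. Reads behind Ribo-seq and RNA-seq values were estimated from steps of RPKM times length, and intervals are exact Poisson at 95%.

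The members and the lists were chosen with earlier results of these data known. Named were the 6 highest rows of each class by mean over all columns, up to 4 rows in each direction with the largest change the same way in both replicates of PARS-seq and of Ribo-seq, every member called, and up to 4 examples of a list. Other members were named after their values were seen. Alternatives were pseudocounts of 0.1 and 5 RPKM, a minimum mean of 5 RPKM or none, median centring, quantile normalization, a replicate block, rows with a single symbol, and leaving out each replicate.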

Additional observations from a re-analysis of the deposited data

How the results depend on the processing

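The number of rows called in PARS-seq was 1728, against 1118 with a minimum mean of 5 RPKM, 546 with no filter and 1154 to 2571 without one replicate. The members called numbered 3, 0 with no filter, and 3 to 8 without one replicate (8 without control replicate 2 and 7 without KD replicate 1). With the replicate number as a block, PARS-seq gave 5656 rows and 18 members called, among them all 3 called without it. Also called were SNORA40 (limma adjusted p = 8.89e-05), SNORD116-1 (3.23e-08), SNORD121A;UBAP2 (7.64e-07), SNORD41;TNPO2 (7.9e-05), SNORD60 (0.0259), SNORA14B;TOMM20 (0.0387), SNORA30;SRCAP (0.000791) and SNORA47;ZBED3 (0.0024). Ribo-seq gave 143 rows and 2 members with the block, where the fit without it had 0 and 0. The 2 members were SNORD116-8 and SNORD116-29, both with log2 differences of opposite sign in the replicates. Deviations of same-numbered columns correlated at 0.658 in PARS-seq and 0.811 in Ribo-seq. The labels do not say what a number marks and there are 2 pairs only. A shared replicate effect is possible, but the main fit did not take the numbers as a pairing. The differences and counts given by replicate do compare same-numbered columns. The PARS-seq median log2 difference of box C/D members was 0.14, with 0.17 and 0.076 for pseudocounts of 0.1 and 5 RPKM, 0.080 with no filter and 0.10 after centring. In Ribo-seq the box C/D median of -0.01 went to -0.19 with no filter and -0.22 for rows of a single symbol, and the box H/ACA median of -0.07 to 0.24 for rows of a single symbol. The RNA-seq box H/ACA median of -0.08 went to 0.32 for rows of a single symbol, which were only 2 rows, at -0.23 and 0.87. With Ribo-seq replicate 1 alone, chosen after seeing the data, the medians were 0 and -0.08. Without one replicate, the PARS-seq log2 difference spanned 0 for SNORA25 (-0.30 to 0.78, called without control replicate 2 with a limma adjusted p of 0.0132), SNORA31;TPT1 (-0.59 to 0.039), SNORA32 (-0.088 to 0.22), SNORA5A;SNORA5B;SNORA5C;TBRG4 (-0.48 to 0.16), SNORA76 (-0.29 to 0.071) and SNORD5 (-0.094 to 0.55). In Ribo-seq it did so for SNORA18 (-0.72 to 0.36), SNORA30;SRCAP (-0.92 to 0.067), SNORA31;TPT1 (-0.68 to 0.83), SNORA32 (-0.31 to 1.97), SNORA47;ZBED3 (-0.88 to 0.060), the SNORA5A row (-0.71 to 0.42), SNORA76 (-1.18 to 1.85), SNORD104 (-1.05 to 0.19), SNORD119;SNRPB (-0.34 to 0.67), SNORD12;SNORD12B;SNORD12C;ZNFX1-AS1 (-0.46 to 0.61), SNORD5 (-1.28 to 0.67), SNORD60 (-1.76 to 1.21), SNORD7 (-0.39 to 1.49) and SNORD93 (-1.73 to 0.20). Quantile normalization turned SNORD119;SNRPB to -0.075, SNORD12;SNORD12B;SNORD12C;ZNFX1-AS1 to -0.053 and SNORA31;TPT1 to -0.17 in Ribo-seq. The cause of these changes was not tested.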
